A study of Mus musculus with 5 samples.

Results

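The mitochondrial ribosome, respiratory chain, protein import and carrier genes were followed in mouse bone marrow mesenchymal stem cells (MSC) that had or had not been exposed to activated T cells. Members were all genes of the deposited array table whose single symbol starts with Mrpl or Mrps (mitochondrial ribosome), Nduf, Sdh, Uqcr, Cox and a number or Atp5 (respiratory chain and ATP synthase), Timm or Tomm (import) or Slc25 (inner membrane carriers). There were 31 such genes among the 2190 named genes of the table, read from 39 of its 3373 probe sets. Where a gene had several probe sets in the table, the one brightest on average across the 5 arrays stands for it. Probe sets of the same gene that the table leaves out, brighter or unchanged ones included, could not be read.

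MSC are stromal cells of the marrow that support blood formation and restrain T cells. The MSC were a primary culture purified from mouse bone marrow and kept in Mesencult medium, and strain, sex and age were not given in the sources used here. A first group of 3 arrays held MSC alone. A second group of 2 arrays held MSC kept for 48 h in a transwell with purified T cells that had been activated in vitro by anti-CD3 and anti-CD28, at 10 T cells per MSC. The membrane of a transwell holds the populations apart, so MSC met only what passes through it. Titles call each array a biological repetition, and nothing says whether repetitions came from separate animals. Values are log2 probe set summaries, on which a difference of 1 is a 2-fold change.

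Mitochondria keep a small genome, whose protein-coding genes encode only core subunits of the respiratory chain and of ATP synthase. Mitochondria translate these on ribosomes of their own. The ribosomal proteins, most respiratory subunits, the import machinery and the carriers are encoded in the nucleus, made in the cytosol and imported. Complexes I to IV pass electrons to oxygen and, apart from complex II, pump protons, and the gradient drives ATP synthase.

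The deposited table bears on every comparison here. In all 3373 probe sets the values of the co-culture arrays lay entirely above or entirely below those of MSC alone, and the smallest gap between the groups was 0.34 on the log2 scale. The table thus holds only features whose groups do not overlap, and the labels do not say by which rule it was selected. All 2190 genes passed limma's test at an adjusted p below 0.05 (100%), so that all 31 members passed is no result about them. Between 7.61 and 7.64 lay the median values of the 3 MSC arrays, and at 7.50 and 7.42 those of the co-culture arrays. Of 16 MSC markers 7 were in the table, and they moved both ways. Higher in co-culture were Pdgfra (13.7-fold) and Vcam1 (7.50-fold), and lower were Col1a1 (15.4-fold), Cxcl12 (11.5-fold), Pdgfrb (5.87-fold), Alcam (2.11-fold) and Cd44 (1.81-fold). The summed log2 levels of the 7, in which these opposite moves partly cancel, were 67.99 to 69.35 in MSC alone and 62.98 to 63.64 in co-culture. Of 15 macrophage and monocyte markers Mpeg1 and Ctss were in the table, with a summed level of 7.48 to 8.47 in MSC alone and 14.70 to 16.05 in co-culture, and their part in the results below was not tested. The table held 0 of 13 T cell, 4 B cell, 5 endothelial and 4 adipocyte markers, so these were not analysed here. In RNA from whole cultures, fewer cells of a type and less RNA per cell cannot be told apart.

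Members entered the table at about the rate of all genes. Of 260 protein-coding RefSeq genes with these prefixes 31 (11.9%) were in it, against 2139 of 21896 protein-coding genes in all (9.8%); whether each has a probe set on the array was not tested. By family these were 8 of 49 Mrpl, 3 of 29 Mrps, 5 of 49 Nduf, 2 of 8 Sdh, 1 of 8 Uqcr, 3 of 27 Cox, 1 of 16 Timm, 1 of 10 Tomm and 7 of 47 Slc25 genes. Of 17 Atp5 genes 0 were in the table, so ATP synthase subunits were not analysed here.

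Promoters of the mitochondrial ribosome genes are shown first, because these genes moved mostly together. Nuclear genes for mitochondrial proteins are classically bound by NRF1, by GABPA (also called NRF-2, which acts with a GABPB subunit), by estrogen-related receptors and by YY1. RefSeq promoter windows (GRCm38.p6, 250 bases before to 50 after a start site) were found for 29 of the 31 members, as 32 windows. The 250 bases before the start site are printed 5′ to 3′ on the gene's strand for 4 ribosomal genes with matches to the NRF1 or GABPA motifs and for Ndufv3, a complex I gene that was lower and had no match. They were picked to show matches and do not stand for all members: of the ribosomal genes with a window, Mrpl1 and Mrpl16, higher by 1.25 and 0.97 on the log2 scale, and Mrps14, which was lower, also had 0 matches. Capitals mark every match, on either strand, to the motifs named below. The windows are chr11:94653541-94653790 (plus strand) for Mrpl27, chr14:54426659-54426908 (plus) for Mrpl52, chr3:94443086-94443335 (plus) for Mrpl9, chr13:14613038-14613287 (minus) for Mrpl32 and chr17:31519865-31520114 (plus) for Ndufv3.
Mrpl27: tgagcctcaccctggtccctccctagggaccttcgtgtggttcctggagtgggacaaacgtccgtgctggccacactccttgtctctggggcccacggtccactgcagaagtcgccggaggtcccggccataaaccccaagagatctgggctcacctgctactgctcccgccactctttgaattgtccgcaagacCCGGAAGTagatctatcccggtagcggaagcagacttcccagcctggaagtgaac
Mrpl52: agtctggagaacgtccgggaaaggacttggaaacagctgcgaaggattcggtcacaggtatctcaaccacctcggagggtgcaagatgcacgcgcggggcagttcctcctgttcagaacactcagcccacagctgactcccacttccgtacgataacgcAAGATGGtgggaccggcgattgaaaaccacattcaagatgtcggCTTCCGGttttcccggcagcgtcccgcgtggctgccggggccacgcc
Mrpl9: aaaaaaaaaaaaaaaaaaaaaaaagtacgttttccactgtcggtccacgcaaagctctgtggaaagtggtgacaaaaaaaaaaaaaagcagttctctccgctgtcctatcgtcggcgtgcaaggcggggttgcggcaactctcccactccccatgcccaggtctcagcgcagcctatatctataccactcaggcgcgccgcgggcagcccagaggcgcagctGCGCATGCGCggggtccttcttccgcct
Mrpl32: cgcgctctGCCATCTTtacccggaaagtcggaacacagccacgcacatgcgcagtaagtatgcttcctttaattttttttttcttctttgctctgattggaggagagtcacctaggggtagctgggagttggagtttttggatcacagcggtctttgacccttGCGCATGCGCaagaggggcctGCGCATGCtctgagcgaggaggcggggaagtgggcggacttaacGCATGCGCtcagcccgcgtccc
Ndufv3: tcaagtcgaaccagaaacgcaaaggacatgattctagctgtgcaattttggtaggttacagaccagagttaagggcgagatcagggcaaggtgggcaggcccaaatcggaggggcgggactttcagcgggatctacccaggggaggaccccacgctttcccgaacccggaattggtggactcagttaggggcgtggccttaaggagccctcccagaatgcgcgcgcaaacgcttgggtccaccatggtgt

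The GABPA motif CCGGAAGT begins 55 bases before the start of Mrpl27, and its shorter core CCGGAAG lies in reverse 47 bases before that of Mrpl52. The full NRF1 motif, the run of 10 capitals that reads the same on both strands, begins 28 bases before the start of Mrpl9 and 87 bases before that of Mrpl32. Further capitals are the NRF1 core GCATGCGC in Mrpl32, the YY1 motif AAGATGGC in reverse in Mrpl32 and the YY1 core AAGATGG in Mrpl52. Each core is contained in its longer motif.

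The GABPA core was present in 6 of the 32 member windows (18.8%), against 16.1% of the 2218 windows of all genes in the table and 8.86% of all 32851 promoter windows. Those 6 genes were Mrpl27, Mrpl52, Mrps18b, Sdhaf2, Slc25a38 and Timm10. All 6 were among the 16 members with a window that were higher in co-culture, and 0 were among the 13 that were lower. For this motif and those below, the split by direction over all genes of the table was not counted. The member splits thus have no background to be read against. The full GABPA motif was in the windows of Mrpl27, Mrpl52 and Timm10, in the last 2 just after the start site (3 windows, 9.38%, against 6.81% in the table and 3.89% of all). The NRF1 core was in those of Mrpl32, Mrpl9 and Mrps18b, all higher in co-culture (3 windows, 9.38%, against 5.0% in the table and 2.71% of all). The full NRF1 motif was in Mrpl32 and Mrpl9 (2 windows, 6.25%, against 1.94% in the table and 0.97% of all). The YY1 core was found in 6 windows (18.8%, against 6.81% in the table and 6.34% of all), of Cox7c, Mrpl32 and Mrpl52, which were higher, and of Mrpl42, Ndufa3 and Ndufb8, which were lower. The full YY1 motif was in 4 of them (12.5%, against 4.01% in the table and 2.75% of all), those of Mrpl32, Mrpl42, Ndufa3 and Ndufb8, beginning at base 28, 23 and 39 of the transcript in the last 3. The estrogen-related receptor motif TCAAGGTCA and its core AAGGTCA were in 0 member windows, against 0.09% and 2.89% in the table and 0.42% and 4.72% of all windows. A match says only that the letters are present.

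Over all members, 18 were higher and 13 lower in co-cultured MSC, while of all genes 48.3% were higher and 51.7% lower. The split differed by family, as 9 of 11 mitochondrial ribosome genes were higher (Mrpl1 by its brighter probe set), 5 of 5 Nduf genes were lower (Ndufa3 by its brighter probe sets), and the other families held members of both directions or a single member. In these counts Mrpl38, Mrpl52 and Ndufb8 were read from 1 dim probe set each. Members differed by less than the typical gene of this table. Their median absolute difference was 0.94 on the log2 scale, against 1.13 over all genes. Differences of at least 2-fold were found for 6 members upward and 8 downward (14 of 31, 45.2%), against 26.3% of all genes upward and 35% downward (61.4% together). With each array centred on its median, which raised each difference by 0.16, this turned to 8 members upward and 6 downward and, over all genes, from 577 upward and 767 downward to 723 and 621. All 31 members kept their direction under that centring. The medians used are those of the selected table, not of the whole arrays, whose values had already been normalised. Whether such centring removes or adds a shift cannot be told from them. Adjusted as if 15 times as many genes had been tested, Slc25a33 alone of the members passed in limma (adjusted p 0.0326), against 8.63% of all genes.

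**Figure D1:**
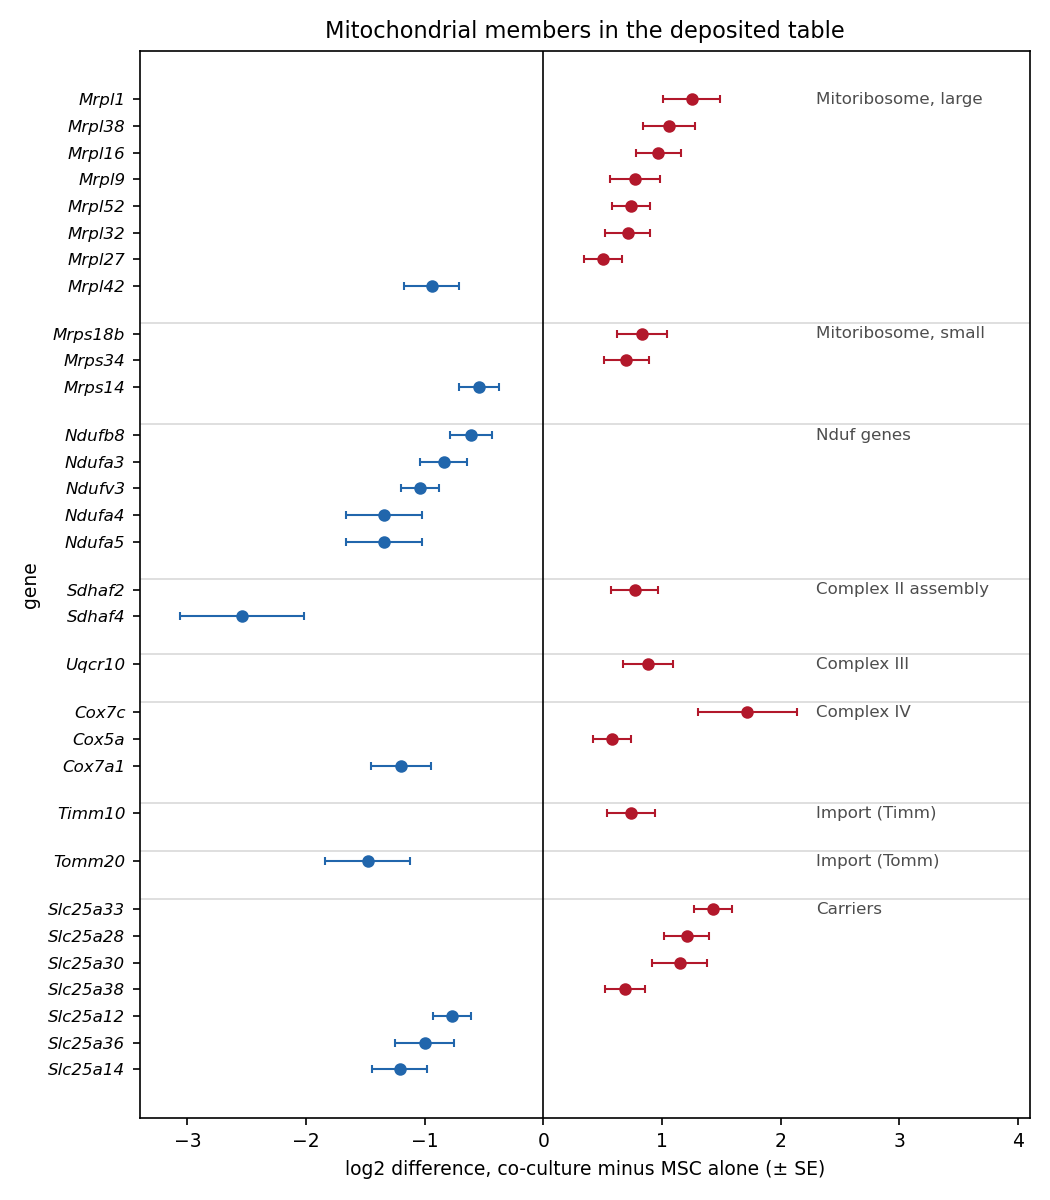
Log2 difference between co-culture and MSC alone (horizontal axis, points with moderated SE) for the 31 members, grouped by family; red is higher and blue lower in co-culture. The mitochondrial ribosome genes lie to the right except Mrpl42 and Mrps14, all 5 Nduf genes lie to the left, and Sdhaf4 has the largest difference, at -2.54.

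Of 8 large-subunit genes of the mitochondrial ribosome 7 were higher, with a median over the 8 of 0.75 on the log2 scale. These proteins are structural parts of the subunit that forms peptide bonds. Mrpl1 stood at 7.48, 8.15 and 7.74 in MSC replicates 1, 2 and 3 and at 9.01 and 9.07 in co-culture replicates 1 and 2. Of the MSC arrays replicate 2 was nearest to the co-culture pair, which were almost equal. The difference was 1.25 ± 0.24 (SE) on the log2 scale, or 2.37-fold (adjusted p 0.00607 in limma). Mrpl16 stood at 9.03, 9.02 and 9.14 in MSC alone and at 9.84 and 10.23 in co-culture, a difference of 0.97 ± 0.19 (adjusted p 0.00635). Its MSC arrays lay close together and co-culture replicate 2 was the highest.

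Mrpl38 stood at 4.51, 4.68 and 4.15 in MSC alone against 5.39 and 5.62 in co-culture, and was 2.08-fold higher (1.06 ± 0.22). These values are low for the table, and no detection call was given. The remaining risen genes, Mrpl9, Mrpl52, Mrpl32 and Mrpl27, were higher by 0.50 to 0.77. Mrpl27, with the smallest difference, was at 9.57, 9.60 and 9.60 in MSC alone and at 10.14 and 10.06 in co-culture, with a very small spread within the groups. Its adjusted p of 0.0193 in limma rose above 0.05 without MSC replicate 1, without MSC replicate 2 or without co-culture replicate 1 (0.0715, 0.061 and 0.0597). Without co-culture replicate 2 the adjusted p of Mrpl9 was 0.0542.

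Mrpl42 went the other way. It stood at 10.18, 10.21 and 10.73 in MSC alone and at 9.43 and 9.44 in co-culture, a difference of -0.94 ± 0.23 (adjusted p 0.00867 in limma). MSC replicate 3 was the highest, and without it the difference was -0.76 on the log2 scale.

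Of 3 small-subunit genes, whose products belong to the part of the ribosome that decodes the messenger, Mrps18b and Mrps34 were higher and Mrps14 was lower. Mrps18b stood at 9.72, 9.88 and 9.36 in MSC alone and at 10.47 and 10.50 in co-culture, a difference of 0.83 ± 0.21 (SE). Mrps34 stood at 9.91, 9.94 and 10.13 against 10.84 and 10.56, a difference of 0.70 ± 0.19. The co-culture pair was tighter in Mrps18b than in Mrps34. Mrps14 stood at 10.58, 10.58 and 10.57 in MSC alone and at 10.16 and 9.92 in co-culture, a difference of -0.54 ± 0.17 (adjusted p 0.0193 in limma). It was among the smallest differences of the table, since 98.4% of genes had a larger one. The adjusted p of Mrps14 was 0.0634 with arrays centred, 0.0661 without MSC replicate 1, 0.0613 without MSC replicate 2 and 0.0804 without co-culture replicate 2. Its second, dimmer probe set was also lower, by -0.77 ± 0.17.

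The Nduf genes all moved down, the median log2 difference being -1.04, with a range from -0.61 to -1.34. Complex I takes electrons from NADH; Ndufa3, Ndufa5 and Ndufb8 encode accessory subunits, Ndufv3 an accessory subunit of the NADH-oxidising module, and Ndufa4 a protein first counted to complex I and since placed in complex IV. Ndufv3 stood at 11.65, 11.72 and 11.63 in MSC alone and at 10.63 and 10.62 in co-culture. Both groups were tight and lay far apart relative to their spread. Ndufv3 was 2.06-fold lower (-1.04 ± 0.16, SE; adjusted p 0.00421 in limma).

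Ndufa4 stood at 10.67, 10.49 and 11.44 in MSC alone and at 9.72 and 9.34 in co-culture, and was 2.52-fold lower (-1.34 ± 0.32). Ndufa5 stood at 9.16, 8.93 and 9.91 against 8.13 and 7.85, and was 2.54-fold lower (-1.34 ± 0.32). In both genes MSC replicate 3 was the highest array and MSC replicate 2 the lowest of the MSC arrays. Ndufb8 stood at 5.49, 5.42 and 5.75 in MSC alone and at 4.89 and 4.99 in co-culture, a low level and a difference of -0.61 ± 0.18. Its adjusted p of 0.0161 in limma was 0.0592 with arrays centred and 0.0585 without co-culture replicate 1. The 2 probe sets assigned jointly to Ndufb4, Ndufb4b and Ndufb4c, which the rule leaves out, were lower by -0.90 ± 0.22 and -0.83 ± 0.22.

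**Figure D2:**
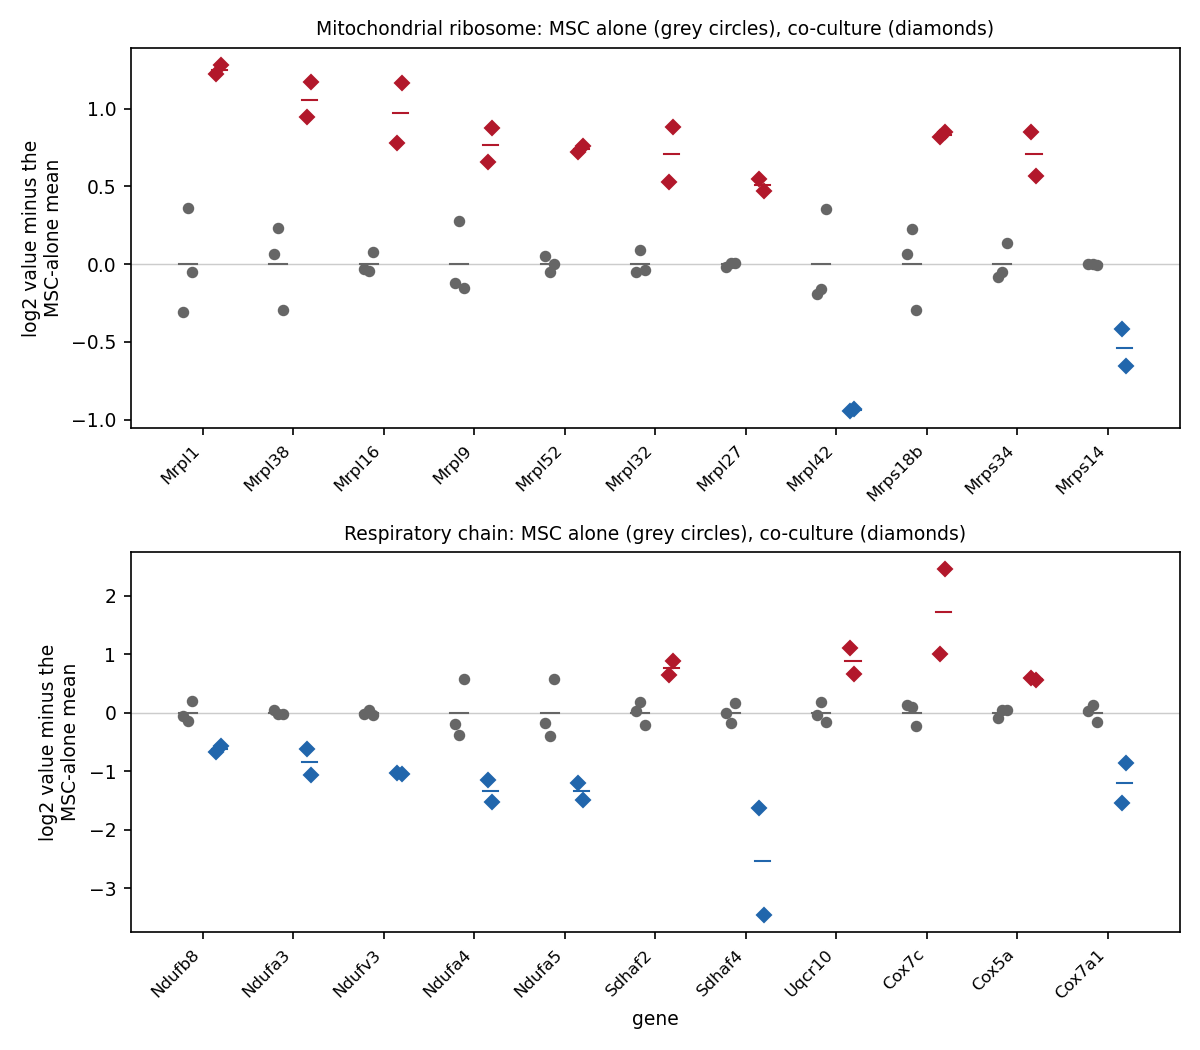
Values of each array minus the gene's mean in MSC alone (log2 units, vertical axis) for mitochondrial ribosome genes (upper panel) and respiratory chain genes (lower panel); short lines are group means. The co-culture diamonds lie off the grey MSC circles in each gene by construction of the table, and co-culture replicates are farthest apart in Sdhaf4 (7.50 and 5.66) and Cox7c (5.63 and 7.08).

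The largest difference of any member was that of Sdhaf4, an assembly factor that binds the flavoprotein subunit of succinate dehydrogenase (complex II). It stood at 9.12, 8.95 and 9.29 in MSC alone and at 7.50 and 5.66 in co-culture. Co-culture replicate 2 was far lower than replicate 1. The difference was -2.54 ± 0.52 (SE), or 5.83-fold lower (adjusted p 0.00653 in limma), and 7.4% of all genes had a larger one. Without co-culture replicate 1 Sdhaf4 was 11.1-fold lower, and without co-culture replicate 2 it was 3.07-fold lower. Sdhaf2, the assembly factor needed to attach the flavin to the same subunit, was higher, at 8.67 and 8.91 in co-culture against 8.05, 8.20 and 7.80 in MSC alone (0.77 ± 0.20). The subunit genes of complex II were not analysed here.

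Uqcr10, a small subunit of complex III, was the only Uqcr gene in the table. It stood at 10.10, 10.31 and 9.98 in MSC alone and at 11.23 and 10.80 in co-culture. Co-culture replicate 1 was the higher of the pair, and the difference was 0.88 ± 0.21 (1.85-fold; adjusted p 0.00864 in limma). The second probe set of Uqcr10 gave 1.14 ± 0.24.

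Among complex IV genes, Cox5a and Cox7c were higher and Cox7a1 was lower. Cox5a, a nuclear-encoded subunit, stood at 11.12, 11.26 and 11.27 in MSC alone and at 11.81 and 11.78 in co-culture (0.58 ± 0.16, SE). The difference was small and the replicates were tight, and the adjusted p of 0.0132 in limma became 0.0593 without MSC replicate 1. Cox7c stood at 4.77, 4.72 and 4.40 in MSC alone and at 5.63 and 7.08 in co-culture, a difference of 1.72 ± 0.42 (3.30-fold). The co-culture arrays disagreed on its size, as the fold was 5.46 without co-culture replicate 1 and 2.00 without co-culture replicate 2. Without moderation of the spread its adjusted p of 0.00884 became 0.0549 in limma's linear model. Cox7a1, the isoform typical of heart and skeletal muscle, stood at 4.74, 4.84 and 4.56 in MSC alone and at 3.17 and 3.86 in co-culture (-1.20 ± 0.25). Cox7c and Cox7a1 were read at low values without detection calls, so the size of both differences is uncertain. Each had 1 probe set in the table, so the direction was not checked by another.

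The 2 import genes moved in opposite directions. Timm10, a small chaperone of the intermembrane space that guides membrane proteins to the inner membrane, stood at 9.32, 9.09 and 9.47 in MSC alone and at 10.16 and 9.90 in co-culture (0.74 ± 0.20, SE). Its adjusted p of 0.011 in limma became 0.0501 without co-culture replicate 1. Tomm20, the outer membrane receptor for presequences, stood at 7.74, 7.55 and 8.66 in MSC alone and at 6.36 and 6.64 in co-culture. MSC replicate 3 was well above the other MSC arrays, and the difference was -1.48 ± 0.36, or 2.79-fold lower (adjusted p 0.00864).

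Of 7 carriers of the Slc25 family, which move metabolites and ions across the inner membrane, 4 were higher and 3 lower, and 5 of the 7 differed by at least 2-fold. Slc25a33, a carrier of pyrimidine nucleotides, stood at 8.27, 8.23 and 8.39 in MSC alone and at 9.70 and 9.76 in co-culture. Both groups were tight, and it was 2.70-fold higher (1.43 ± 0.16, SE; adjusted p 0.00217 in limma, the lowest among members). Slc25a36, a related carrier of pyrimidine nucleotides, went the other way, from 5.32, 5.56 and 6.04 in MSC alone to 4.59 and 4.68 in co-culture, and was 2.01-fold lower (SE 0.25 on the log2 scale). MSC replicate 3 was its highest array.

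Slc25a28, mitoferrin-2, an iron importer, stood at 8.37, 8.46 and 8.72 in MSC alone and at 9.79 and 9.67 in co-culture, and was 2.32-fold higher (1.21 ± 0.19; adjusted p 0.00424 in limma). Slc25a38, which takes up glycine for heme synthesis, stood at 6.61, 6.59 and 6.77 against 7.36 and 7.32 and was higher by 0.69. The co-culture pair was tight in both genes. Slc25a30, an uncoupling-protein-like carrier, stood at 9.25, 9.80 and 9.28 in MSC alone and at 10.50 and 10.67 in co-culture (1.15 ± 0.23). MSC replicate 2 was highest of its group in this gene and in its other 3 probe sets, which rose by 1.26 to 1.42.

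Slc25a14, another uncoupling-protein-like carrier, stood at 7.56, 7.45 and 7.50 in MSC alone and at 6.61 and 5.99 in co-culture, and was 2.31-fold lower (-1.21 ± 0.23; adjusted p 0.00602 in limma). Slc25a12, the aspartate and glutamate carrier of the malate-aspartate shuttle, stood at 5.74, 5.75 and 5.69 against 4.92 and 4.99 (-0.77 ± 0.16). Spread among MSC arrays was small in both.

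**Figure D3:**
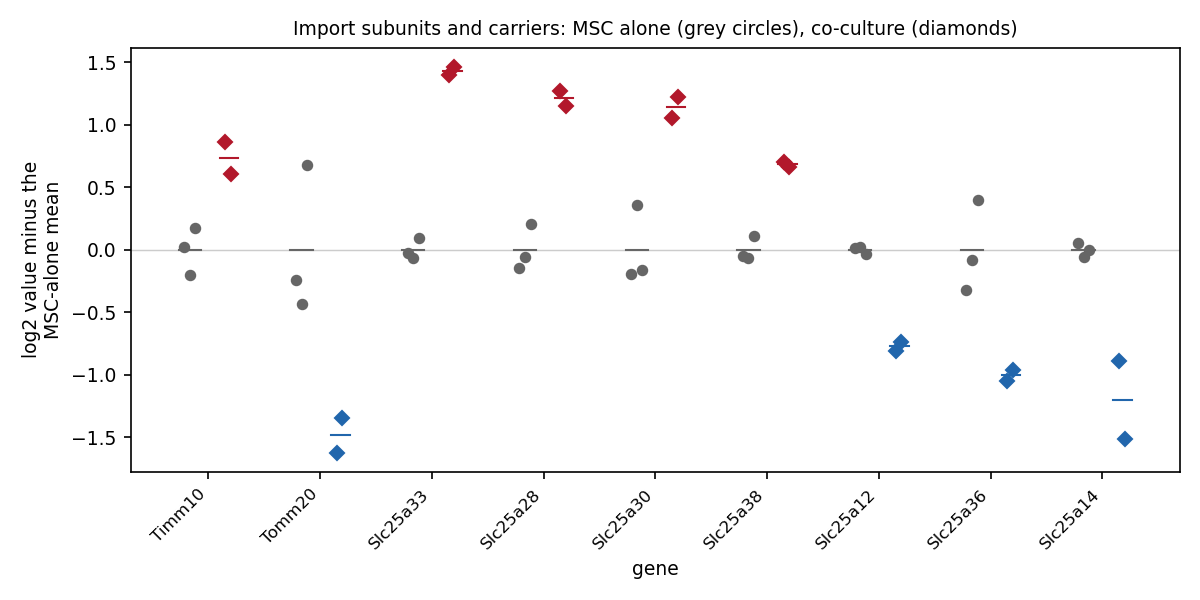
Values of each array minus the gene's mean in MSC alone (log2 units) for the import genes Timm10 and Tomm20 and the 7 Slc25 carriers; short lines are group means. The 3 MSC circles are widest apart in Tomm20, where replicate 3 stood at 8.66.

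MSC replicate 3 was the highest MSC array in 14 of 31 members (45.2%) and in 37.4% of all genes. Of the 9 members whose MSC arrays spanned 0.5 or more on the log2 scale, it was the highest in 5, namely Mrpl42, Ndufa4, Ndufa5, Tomm20 and Slc25a36, all lower in co-culture. The matching share over all genes was not counted. Without MSC replicate 3 these 5 fell by less than with all arrays. The falls were then 1.69-fold for Mrpl42, 2.07-fold for Ndufa4 and for Ndufa5, 2.2-fold for Tomm20 and 1.75-fold for Slc25a36. Without MSC replicate 3 all 31 members passed limma's threshold, as did all 2190 genes (100%), so this says nothing particular about the members.

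The choice of probe set decided the direction of 2 members. Several probe sets were in the table for 5 members, and in Mrpl1 and Ndufa3 they moved in opposite directions (40%), against 40 of 588 such genes in the whole table (6.8%). The brighter Mrpl1 probe set was higher, as given above. The dimmer one stood at 6.84, 6.79 and 6.62 in MSC alone and at 6.21 and 5.96 in co-culture (-0.67 ± 0.18, SE). Ndufa3 stood at 11.38, 11.31 and 11.31 in MSC alone and at 10.72 and 10.27 in co-culture in its brightest probe set, a difference of -0.84 ± 0.20. The second gave -0.86 ± 0.19. The third was dim and rose, from 4.57, 5.22 and 4.79 to 5.94 and 6.35 (1.28 ± 0.26). With the probe sets of a gene averaged, Mrpl1 differed by 0.29 (adjusted p 0.163 in limma) and Ndufa3 by -0.14 (adjusted p 0.452). A probe set assigned to both Nme3 and Mrps34 was lower by -1.01 ± 0.18, opposite to the probe set of Mrps34 alone. Which transcripts these probe sets read was not tested. Identifiers ending in _s_at, _x_at or _a_at mark probe sets that can match several transcripts, of 1 gene (_a_at) or of related ones. Without them Mrpl9, Mrps18b, Mrps34, Ndufv3 and Slc25a28 dropped out and Mrpl1 was read as lower, by -0.67. The probe sets so removed for these genes all end in _a_at.

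**Figure D4:**
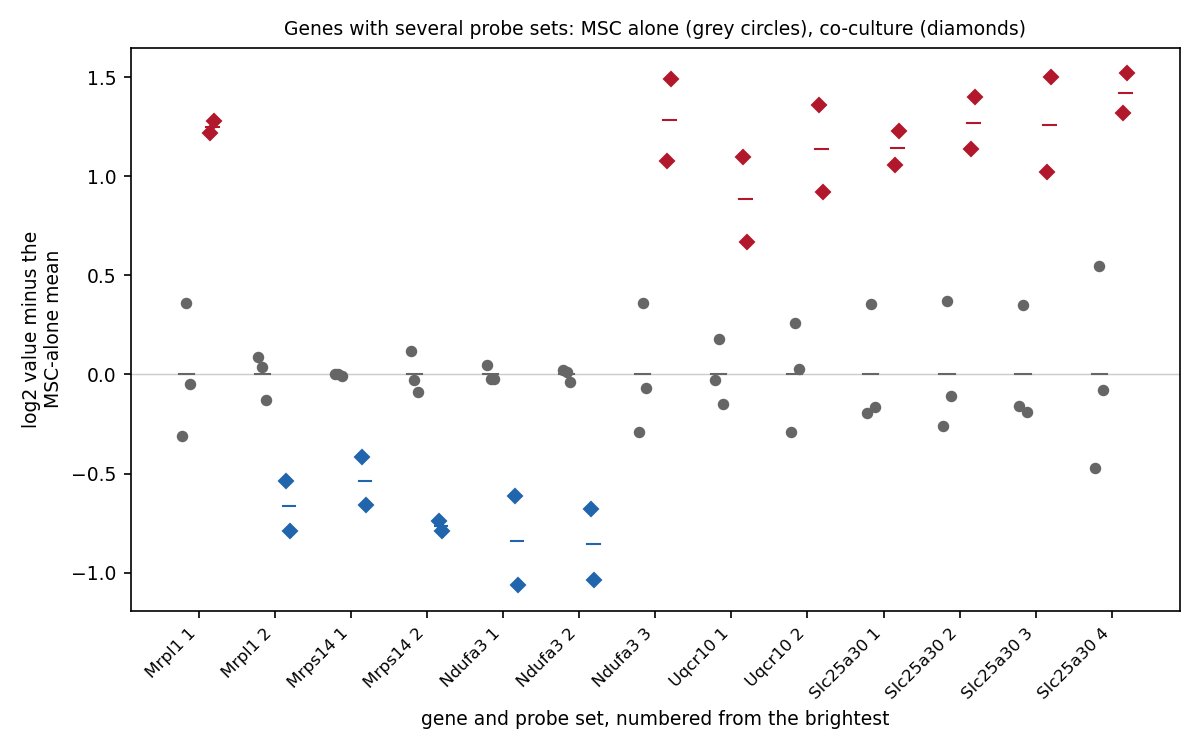
Values of each array minus the probe set's mean in MSC alone (log2 units) for the 5 members with several probe sets, numbered from the brightest. Mrpl1 and Ndufa3 hold probe sets of both directions, while those of Mrps14, Uqcr10 and Slc25a30 share a direction within each gene.

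Other mitochondrial genes in the table were read from 7 lists. For comparison, 9.8% of all protein-coding genes were in the table, and of all its genes 48.3% were higher and 51.7% lower. Each count by direction covers only the few listed genes that the selected table holds. Of 34 genes for mitochondrial biogenesis, mitochondrial DNA and its transcription 5 were in the table, and all 5 were higher in co-culture, the median log2 difference being 1.03. Gabpb1, the partner subunit of GABPA, stood at 7.81, 8.11 and 8.47 in MSC alone and at 9.29 and 10.14 in co-culture (3.00-fold, adjusted p 0.00653 in limma). Any link of Gabpb1 to the motif matches above was not tested. Polg2, the accessory subunit of the mitochondrial DNA polymerase, was 2.61-fold higher, and Ppargc1b, a coactivator of respiratory genes, 2.04-fold. Esrra, encoding an estrogen-related receptor, and Tfb2m, a mitochondrial transcription factor, were 1.45-fold and 1.62-fold higher. The summed level of these 5 genes was 36.22 to 37.57 in MSC alone and 41.38 and 43.16 in co-culture.

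Of 41 listed assembly factors and electron carriers outside the member prefixes 6 were in the table, 2 higher and 4 lower. Higher were Sco2, a copper chaperone for complex IV (2.00-fold), and Cycs, cytochrome c (1.86-fold), and the largest fall was that of Etfb, a subunit of the electron transfer flavoprotein (1.95-fold). Of 38 import, chaperone and protease genes 5 were present and 4 were higher. Grpel2, a co-chaperone of the import motor, and Hspa9, its Hsp70, were 2.32-fold and 1.51-fold higher beside Timm10, while Romo1 was 1.99-fold lower. Of 47 further genes of mitochondrial translation 2 were present, Tars2, a threonyl-tRNA synthetase, 1.85-fold higher, and Guf1, 2.21-fold lower. All 4 measured of 29 genes of the tricarboxylic acid cycle and pyruvate entry were lower, led by Pdk1, a kinase that inhibits pyruvate dehydrogenase (5.55-fold). Of 25 genes of mitochondrial dynamics and mitophagy 5 were measured and 4 were lower, led by Bnip3, a mitophagy receptor (4.47-fold). Of 24 genes listed as channels, uncouplers and related proteins 3 were measured, Mtch2 2.36-fold higher and Mtch1 and Sfxn3 2.38-fold and 1.63-fold lower. The listed Vdac, Ucp and Mcu genes were not among them. The other listed genes were not analysed here.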

How the data were processed

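Total RNA from the 5 cultures (3 and 2 per group) was labelled with biotin and hybridised to Affymetrix arrays. The deposited log2 values are RMA summaries made by the authors, per the submitters' processing notes (version not given in the sources used here). RMA corrects background, quantile-normalises and summarises probe sets. It gives no detection call and compresses low values, and the number of arrays limits the precision. Groups came from the sample titles. Of 3373 probe sets 3013 had 1 gene symbol, 69 several and 291 no listed gene; 3010 were found in RefSeq (GRCm38.p6), which changed 0 symbols.

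The test was limma 3.58.1 (R 4.3.3), lmFit and eBayes on all 5 arrays, two-sided, Benjamini-Hochberg adjusted over the 2190 genes (for further probe sets, over all 3373), and checked on simulated data. Group separation in the selected table makes errors too small and differences too large to an unknown degree. P-values measure only the spread between these arrays. Named were all members of families of 6 or fewer, the 3 largest rises and falls of larger ones, members differing by at least 2-fold or with opposite probe sets, and up to 3 per further list. Named outside this rule, after their values were seen, were Mrpl9, Mrpl52, Mrpl32, Mrpl27, Slc25a38, Esrra, Tfb2m, Hspa9 and the probe sets of several genes. The 31 members, the lists and the motifs were chosen with earlier results of these data known.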

Additional observations from a re-analysis of the deposited data

How the results depend on the processing

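All alternatives were planned. With adjustment as if 15 times as many rows were tested, 205 higher and 210 lower probe sets passed, and 1 higher and 0 lower members (limma; at an unadjusted p below 0.05, 18 and 13). Family medians moved by more than the spread between replicates as follows. With arrays centred, the Mrpl, Mrps and Slc25 medians were 0.92, 0.87 and 0.85 on the log2 scale. Without the dimmest 25% of probe sets that of Slc25 was 1.15, and with the replicate block 0.74. Without _s_at, _x_at and _a_at probe sets the Mrps median was -0.54, now from Mrps14 alone, and that of Slc25 -0.04, as Slc25a28 dropped out. Leaving out each array in turn gave medians of 0.69 to 0.88 for Mrpl, 0.56 to 0.82 for Mrps, 0.65 to 0.74 for Slc25, 0.53 to 0.60 for Cox and -1.06 to -1.01 for Nduf, with 16 to 18 higher and 12 to 13 lower members past the threshold, beside 92.5% to 100% of all genes. Among single members, Mrpl1 reversed to -0.67 without those probe sets and with the dimmest probe set of each gene, and Ndufa3 to 1.28 with the dimmest; no other member reversed in any alternative that kept it. Array weights changed no call of a member or of any other gene. The shared replicate numbers do not pair the samples by any label. Deviations from group means correlated at 0.221 for number 1 and 0.32 for number 2 over probe sets, with the 2 co-culture deviations opposite by construction, and under the replicate block all 31 members passed the threshold, as did all 2190 genes (100%). A fit without a co-culture array assumes that the lone array varies like the MSC arrays. Low values without detection calls (Mrpl38, Mrpl52, Ndufb8, Cox7c, Cox7a1, Slc25a12 and Slc25a36) make the size of these differences uncertain. Each of these genes had 1 probe set in the table, so its direction was not checked by another. Without the dimmest probe sets 7 members dropped out.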
